A study of Saccharomyces cerevisiae with 12 samples.

Results

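CYC1, CYC7, ANB1, ROX1, HEM13, OLE1, COX5A, COX5B and AAC3 of *Saccharomyces cerevisiae* are genes whose transcription follows heme and oxygen. They were taken by name, as 9 of the 5656 genes that probe sets of the array name singly, and all 9 were measured. The probe set of each gene was chosen by its mean intensity, the brightest being taken, and since each gene had 1 probe set that names it alone, this decided nothing. The list itself was drawn up with results of these arrays known, so that its values are a description. The genes were followed on 12 Affymetrix YG-S98 arrays, 3 each of *anc1*Δ cells with MMS, *anc1*Δ cells without MMS, wildtype cells with MMS and wildtype cells without MMS. MMS is methyl methanesulfonate, a DNA methylating agent. The *anc1*Δ strain carries a G418 resistance cassette in place of ANC1 (TAF14), a subunit of TFIID, SWI/SNF and several other transcription complexes. According to the methods both strains derive from BY4741, a haploid MATa strain with deletions in HIS3, LEU2, MET15 and URA3, and were grown in YPD to log phase. The strain table, however, lists a BY4741 deletion of ANC1 with URA3, and deletions with kanMX4, a G418 resistance marker, only in other, MATalpha backgrounds. On these arrays MET15 (MET17), which BY4741 lacks, had intensities of 6.02 to 11.5 over the *anc1*Δ arrays and 5.92 to 13.3 over the wildtype arrays, and URA3 had 9.44 to 17.2 and 7.23 to 11.9, so that both genes lay near the bottom of the arrays in both strains. HIS3, also named among the deletions, was not near the bottom. By its brighter probe set it had 805 to 1179 over the *anc1*Δ arrays and 755 to 1366 over the wildtype arrays. By the other it had 177 to 454 and 167 to 445. LEU2 had 12.3 to 64.5 and 8.80 to 64.0 over its probe sets. Why HIS3 stood apart was not tested. For the arrays, neither labels nor methods state the dose of MMS or the time of exposure. Independent colonies of both strains are described with no word on treatment. Where the treated arrays do not come from separate cultures, p-values measure only the spread between arrays, which may be technical.

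In yeast, heme is made only when oxygen is present, and it serves as the signal for oxygen. Heme activates Hap1 and, through it and the Hap2/3/4/5 complex, genes of respiration, and it induces ROX1, whose product represses hypoxic genes together with Tup1 and Cyc8. Several proteins exist as an aerobic and a hypoxic isoform encoded by separate genes: cytochrome c (CYC1 and CYC7), subunit V of cytochrome c oxidase (COX5A and COX5B), translation factor eIF5A (HYP2 and ANB1) and the ADP/ATP carrier (PET9 and AAC3). HEM13 and OLE1 encode enzymes that use oxygen as a substrate and are induced when it becomes scarce. Strains derived from S288C, such as BY4741, carry a HAP1 gene disrupted at its end by a Ty1 element, which weakens it.

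Values are intensities after RMA, the authors' array normalization, and tests were run on log2 intensity. ANC1, the gene deleted, had intensities of 8.37, 14.2 and 8.07 in *anc1*Δ with MMS and 6.87, 15.7 and 8.71 in untreated *anc1*Δ, against 193, 175 and 198 in wildtype with MMS and 261, 356 and 237 in untreated wildtype. RNR3 and HUG1, which DNA damage induces, served as a check of the treatment, since the source names of the wildtype arrays titled as treated call them untreated. RNR3 rose 7.87-fold with MMS in wildtype and 1.64-fold in *anc1*Δ. HUG1 rose 4.72-fold in wildtype, while its log2 change in *anc1*Δ was 0.30 (adjusted p = 0.115, limma). All 5 MATa markers (STE2, STE6, BAR1, MFA1 and MFA2) lay lower in *anc1*Δ, and their summed intensity was 1748 to 2331 over the *anc1*Δ arrays, against 11148 to 12856 over the wildtype arrays. That of 4 MATalpha markers was 139.98 to 182 over the *anc1*Δ arrays and 151 to 274 over the wildtype arrays. The part of these markers in the strain differences below was not tested. For actin, the signal at the 3' end over that at the 5' end, which rises as RNA degrades, was 3.43 to 4.0 in *anc1*Δ with MMS, 1.74 to 1.85 in untreated *anc1*Δ, 3.31 to 3.85 in wildtype with MMS and 1.47 to 1.68 in untreated wildtype. It thus moved with the MMS responses and, by less, with the strain, and its part in them was not tested.

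MMS lowered most of these genes in both strains and raised ROX1 in both. In *anc1*Δ, 8 of the 9 changed with MMS, where 31.7% of all genes did, and 7 of them were lower and ROX1 higher, where 15.7% of all genes were lower and 16.0% higher. In wildtype it was also 8 of the 9, where 48.5% of all genes changed, again 7 lower and ROX1 higher, where 20.8% were lower and 27.7% higher. AAC3 was the gene that did not pass in *anc1*Δ, and CYC7 the one that did not in wildtype. The median log2 change of the 9 was -1.67 in *anc1*Δ and -2.07 in wildtype, where that of all genes was -0.01 and 0.08. A gene is said to have changed, risen or fallen where limma gave a Benjamini-Hochberg adjusted p under 0.05 over all probe sets and a fold of at least 1.5. Between the strains, 4 of the 9 differed without MMS, against 23.5% of all genes, with CYC7 and ROX1 higher and ANB1 and HEM13 lower in *anc1*Δ, where 11.1% of all genes were higher and 12.4% lower. With MMS 5 of the 9 were higher in *anc1*Δ and none was lower, where 29.3% of all genes differed, 10.9% higher and 18.4% lower. The median log2 change between the strains was 0.75 with MMS and -0.10 without, where that of all genes was -0.18 and -0.10. The groups compared did not overlap in 8 of the 9 genes for MMS in *anc1*Δ (70.7% of all genes), 8 for MMS in wildtype (74.6%), 7 for the treated strains (72.0%) and 5 for the untreated strains (60.7%), counts that lie within 2 genes of those shares of 9. The 4 comparisons share arrays in pairs and are not independent of each other. In cultures, fewer cells expressing a gene and less RNA per cell cannot be told apart.

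**Figure D1:**
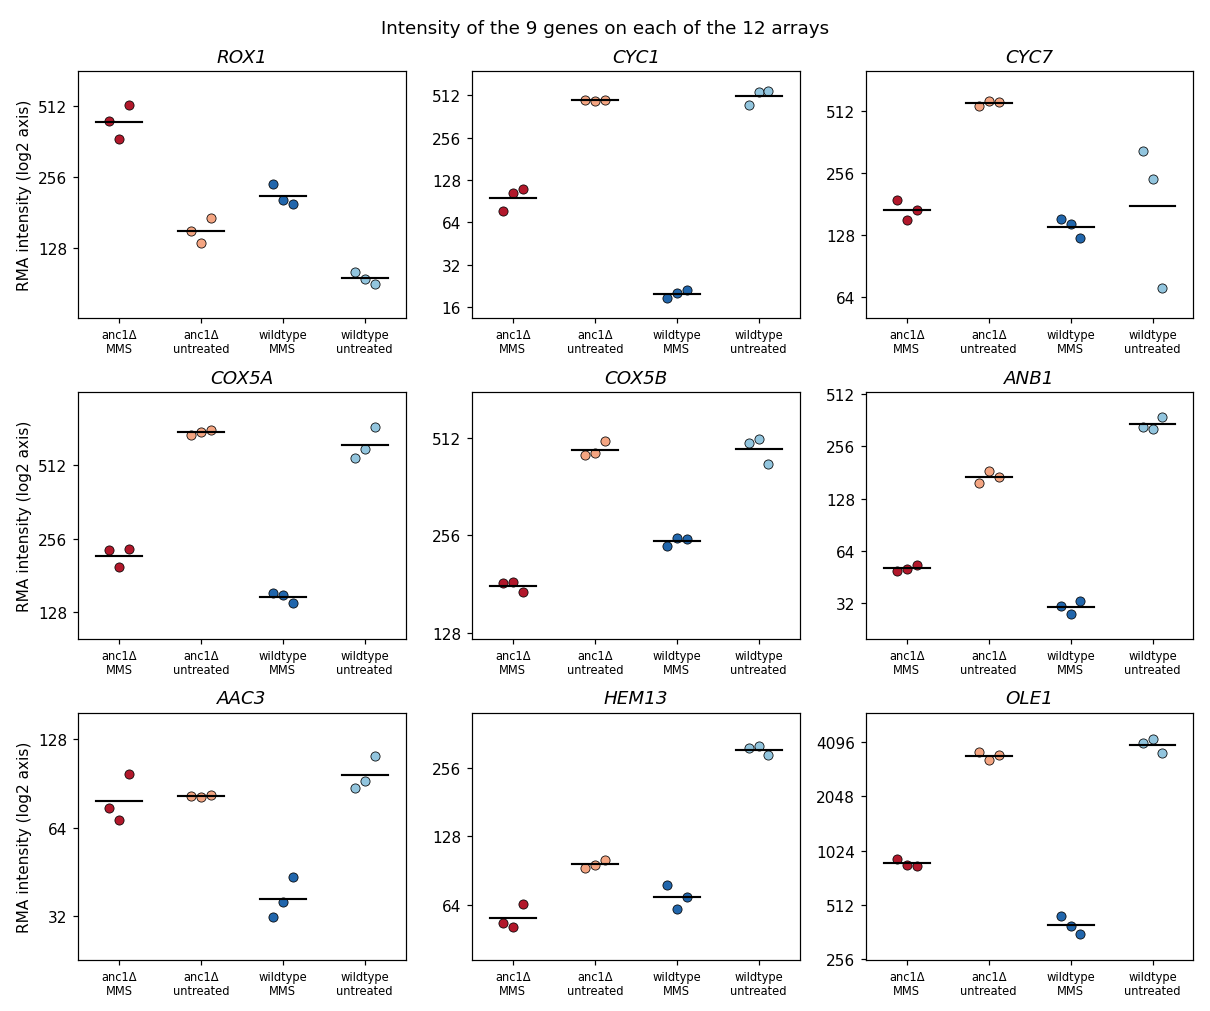
RMA intensity (log2 axis) of the 9 genes on each of the 12 arrays. Points are single arrays, and the line is the mean of the log2 intensities of 3 arrays. ROX1 is highest in *anc1*Δ with MMS, at 371 to 516, and CYC1 is lowest in wildtype with MMS, at 18.7 to 21.1.

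ROX1 (YPR065W), the heme-induced repressor of hypoxic genes, was higher in *anc1*Δ than in wildtype with and without MMS, and MMS raised it in both strains. Its intensity was 441, 371 and 516 in *anc1*Δ with MMS, 151, 135 and 172 in untreated *anc1*Δ, 239, 204 and 197 in wildtype with MMS, and 102, 94.7 and 90.4 in untreated wildtype. The ranges of the 4 groups did not overlap, and in descending order they were *anc1*Δ with MMS, wildtype with MMS, untreated *anc1*Δ and untreated wildtype. MMS raised ROX1 by a log2 change of 1.53 in *anc1*Δ (95% confidence interval 1.25 to 1.82, adjusted p = 9.33e-07) and of 1.15 in wildtype (0.87 to 1.44, adjusted p = 4.74e-06). The difference of these responses was 0.38 with an interval of -0.03 to 0.78 (adjusted p = 0.146), so that it was not resolved. Between the strains the log2 change was 1.04 with MMS (adjusted p = 2.61e-05) and 0.67 without (0.39 to 0.95, adjusted p = 0.00345). Without MMS the size is close to the fold limit, and without *anc1*Δ untreated replicate 3 it was 0.58, just under it.

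The other regulators were less uniform. Of 15 genes for regulators, ROX1 included, 3 were higher and 2 lower in untreated *anc1*Δ than in untreated wildtype. Of all genes 11.1% were higher and 12.4% lower, so that the higher count was above its share and the lower count close to it. HAP4, the limiting subunit of the Hap2/3/4/5 activator, was higher by a log2 change of 1.28 (adjusted p = 0.0049) and SUT1, a regulator of sterol uptake and hypoxic genes, by 1.37 (adjusted p = 0.000547). On wildtype untreated replicate 3 HAP4 had 614, against 1307 and 1140 on replicates 1 and 2. The size of its difference thus depends on that array. MGA2, an activator of OLE1, was lower (-1.09, adjusted p = 0.000441), as was the corepressor gene TUP1 (-0.70, adjusted p = 0.00229). With MMS, 1 rose and 4 fell in *anc1*Δ, and 1 rose and 4 fell in wildtype, the riser being ROX1 each time. Of all genes 16.0% rose and 15.7% fell in *anc1*Δ, and 27.7% rose and 20.8% fell in wildtype. The rises among the regulators were thus below the share of all genes. The falls were near it in wildtype and above it in *anc1*Δ, on few genes. HAP4 fell in *anc1*Δ (-1.76) and in wildtype (-1.53), and CYC8 in *anc1*Δ (-0.79) and in wildtype (-0.78). TUP1 fell in wildtype (-1.03, adjusted p = 1.56e-06). In *anc1*Δ its mean intensity was 306 with MMS and 433 without. SUT1 fell in *anc1*Δ (-2.32), while its log2 change in wildtype was -0.38 (adjusted p = 0.0512), and the responses differed by -1.95 (adjusted p = 6.77e-05). HAP1, read from a probe set of the kind that can bind several similar sequences, passed in no comparison, with log2 changes of 0.11 to 0.44 and a difference of responses of 0.21 (adjusted p = 0.629). With the mean of its probe sets, the change between the treated strains was -0.06 and the difference of responses -0.20. Neither passed, and the direction of HAP1 thus depends on the probe set.

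CYC1 (YJR048W), the main cytochrome c of aerobic cells, showed the largest fall of the 9 genes in either strain, and it fell further in wildtype than in *anc1*Δ. Its intensity was 77.1, 104 and 109.8 in *anc1*Δ with MMS and 475, 465 and 474 in untreated *anc1*Δ. In wildtype it was 18.7, 20.3 and 21.1 with MMS and 440.3, 539.9 and 545 without. The untreated arrays of the strains overlapped, and the treated ones lay far apart, with *anc1*Δ above wildtype. The log2 change with MMS was -2.30 in *anc1*Δ (-2.58 to -2.01, adjusted p = 2.77e-08) and -4.66 in wildtype (-4.94 to -4.38, adjusted p = 4.93e-11). The difference of responses was 2.36 (1.96 to 2.77, adjusted p = 3.5e-06). With MMS, CYC1 was thus 4.80-fold higher in *anc1*Δ than in wildtype (adjusted p = 3.01e-08). Without MMS the log2 change between the strains was -0.10 with an interval of -0.37 to 0.16. In wildtype with MMS CYC1 lay at percentile 21.9 of all probe sets, where the size of a fall depends on the background of the arrays.

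CYC7 (YEL039C), the cytochrome c isoform made in greater share when oxygen is low, behaved unlike CYC1. Its intensity was 189, 152 and 169 in *anc1*Δ with MMS and 541, 573 and 566 in untreated *anc1*Δ. In wildtype it was 154, 145 and 123 with MMS, and without MMS it was 327, 239 and 70.5. The untreated *anc1*Δ arrays stood above all others, while those of untreated wildtype spread over more than the range of both treated groups. In untreated cells CYC7 was 3.17-fold higher in *anc1*Δ (log2 change 1.67, interval 0.57 to 2.76, adjusted p = 0.0244). Without wildtype untreated replicate 3, the array at 70.5, the log2 change was 1.00 (adjusted p = 0.0023), and without any 1 of the untreated *anc1*Δ arrays it was 1.65 to 1.69 and no longer passed (adjusted p between 0.0578 and 0.0677). MMS lowered CYC7 in *anc1*Δ by a log2 change of -1.73 (-2.58 to -0.88, adjusted p = 0.00255). In wildtype the log2 change was -0.33 (-1.18 to 0.51, adjusted p = 0.464), but -0.997 (adjusted p = 7.2e-05) without replicate 3 of untreated wildtype and 0.11 (adjusted p = 0.801) without replicate 1. The responses differed by -1.39, which did not pass (adjusted p = 0.076). It passed without wildtype untreated replicate 1 (-1.84, adjusted p = 0.0133) or replicate 3 (-0.73, adjusted p = 0.0166). With MMS the strains differed by 0.27 (-0.58 to 1.12, adjusted p = 0.569).

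COX5A (YNL052W) and COX5B (YIL111W) encode the aerobic and the hypoxic form of the same oxidase subunit, and both fell with MMS in both strains. COX5A had intensities of 229, 196 and 232 in *anc1*Δ with MMS, 677, 695 and 713 in untreated *anc1*Δ, 153, 151 and 139 in wildtype with MMS, and 548, 593 and 728 in untreated wildtype. COX5B had 183, 183 and 171 in *anc1*Δ with MMS, 454, 461 and 504 in untreated *anc1*Δ, 238, 251 and 250.5 in wildtype with MMS, and 496, 510.0 and 426 in untreated wildtype. Untreated, the strains overlapped in both genes, and with MMS the ranges separated in opposite directions, with COX5A above wildtype and COX5B below it in *anc1*Δ. COX5A changed with MMS by -1.67 in *anc1*Δ and -2.07 in wildtype on the log2 scale (adjusted p = 1.02e-07 and 5.27e-09). COX5B changed by -1.40 in *anc1*Δ and -0.95 in wildtype (adjusted p = 8.29e-08 and 9.88e-07). The responses of COX5B differed by -0.45 (-0.73 to -0.17, adjusted p = 0.0201), which passed on p and not on fold, and those of COX5A by 0.39 (adjusted p = 0.0776).

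With MMS, COX5A lay 1.48-fold higher in *anc1*Δ than in wildtype (adjusted p = 0.000891), just short of the limit. It passed when each array was centred on its median again or quantile normalized again (log2 change 0.69 under each). COX5B lay 1.38-fold lower (adjusted p = 0.000874). Without MMS the intervals of the strain difference were -0.12 to 0.46 for COX5A and -0.27 to 0.25 for COX5B.

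ANB1 (YJR047C), the hypoxic gene for eIF5A and a classic target of Rox1, was lower in untreated *anc1*Δ and higher in treated *anc1*Δ than in the matching wildtype cells. Its intensity was 49.2, 50.2 and 53.4 in *anc1*Δ with MMS, 158, 185 and 170.4 in untreated *anc1*Δ, 30.7, 27.7 and 32.8 in wildtype with MMS, and 333, 322 and 379 in untreated wildtype. The 4 groups did not overlap, and untreated wildtype was highest. Without MMS the strains differed by a log2 change of -1.01 (-1.27 to -0.75, adjusted p = 0.00036), and with MMS by 0.75 (0.53 to 0.96, adjusted p = 4.21e-05). Quantile normalization again brought the difference with MMS to 0.56, under the fold limit. MMS lowered ANB1 3.35-fold in *anc1*Δ and 11.3-fold in wildtype, and the responses differed by 1.76 on the log2 scale (1.45 to 2.06, adjusted p = 4.21e-06). In wildtype with MMS its level lay at percentile 28.2.

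ANB1 and CYC1 are direct neighbours on chromosome X in the RefSeq annotation (R64), with no gene between them. Both fell with MMS and fell further in wildtype, and only ANB1 differed between the untreated strains. HYP2 (YEL034W), the aerobic eIF5A gene, lies near CYC7 on chromosome V, with 4 genes between them. Its intensity was 6334 to 6786 in *anc1*Δ with MMS, 8906 to 8922 in untreated *anc1*Δ, 3839 to 4541 in wildtype with MMS and 6808 to 8091 in untreated wildtype. HYP2 fell 1.77-fold with MMS in wildtype, and in *anc1*Δ its log2 change was -0.44 (adjusted p = 0.00162), under the fold limit. ANB1 and HYP2 are close paralogs, and how much RNA of one binds the probe set of the other is not known from these values.

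AAC3 (YBR085W), the hypoxic ADP/ATP carrier, fell with MMS in wildtype alone by these criteria, and the difference of the responses was itself past the test. Its intensity was 74.8, 67.9 and 97.2 in *anc1*Δ with MMS, 82.0, 81.2 and 82.9 in untreated *anc1*Δ, 31.8, 35.8 and 43.4 in wildtype with MMS, and 87.5, 92.2 and 112 in untreated wildtype. Wildtype with MMS lay below all other groups, and the treated and untreated *anc1*Δ arrays overlapped. The log2 change with MMS was -0.05 in *anc1*Δ (-0.37 to 0.27, adjusted p = 0.795) and -1.40 in wildtype (-1.72 to -1.08, adjusted p = 2.32e-06), a difference of 1.35 (0.89 to 1.80, adjusted p = 6e-04). With MMS AAC3 was 2.15-fold higher in *anc1*Δ (adjusted p = 4.23e-05). Without MMS the log2 change between the strains was -0.24 (-0.52 to 0.04, adjusted p = 0.148). AAC3 was dim throughout, between percentiles 31.0 and 47.4. PET9 (YBL030C), the major carrier of aerobic cells, was higher in *anc1*Δ than in wildtype with MMS (1.96-fold, adjusted p = 1.14e-05) and without (1.74-fold, adjusted p = 0.00271).

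**Figure D2:**
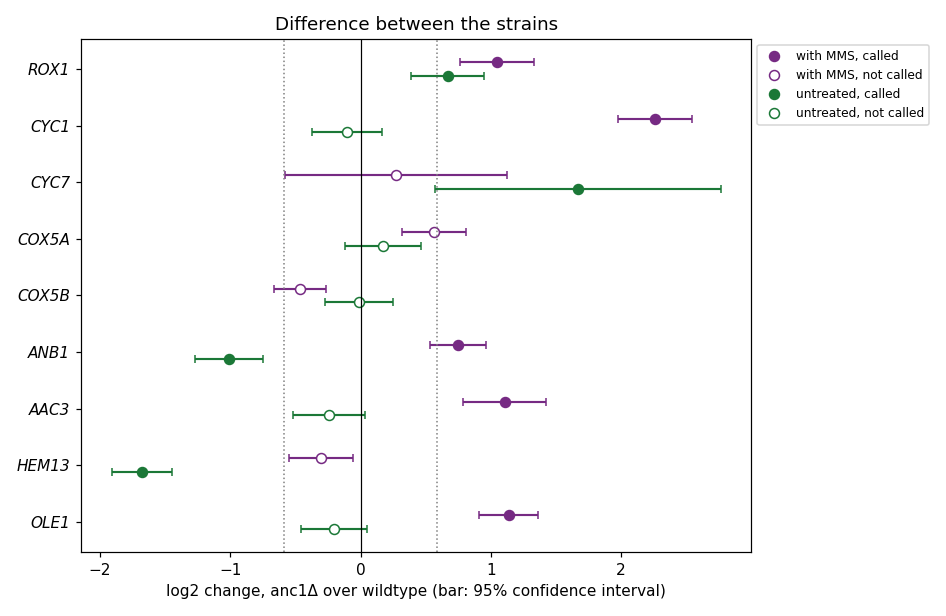
Log2 change between the strains (*anc1*Δ over wildtype) with and without MMS for the 9 genes. Bars are 95% confidence intervals of limma, and filled points passed the adjusted p and the fold of 1.5 (dotted lines). HEM13 lies lowest without MMS at -1.68, and CYC1 highest with MMS at 2.26.

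HEM13 (YDR044W), coproporphyrinogen oxidase, needs oxygen for a late step of heme synthesis and is repressed by Rox1. It was lower in untreated *anc1*Δ than in untreated wildtype, and it fell with MMS in both strains. Its intensity was 53.4, 51.1 and 64.7 in *anc1*Δ with MMS, 92.7, 95.6 and 101 in untreated *anc1*Δ, 78.0, 61.0 and 69.4 in wildtype with MMS, and 314, 321 and 293 in untreated wildtype. Untreated wildtype stood far above the rest, and the treated groups overlapped. Without MMS HEM13 was 3.20-fold lower in *anc1*Δ (log2 change -1.68, interval -1.91 to -1.45, adjusted p = 1.3e-05). MMS changed it by -0.78 in *anc1*Δ (adjusted p = 8.35e-05) and by -2.16 in wildtype (adjusted p = 3.99e-09). The responses differed by 1.38 (1.03 to 1.73, adjusted p = 6.55e-05). With MMS the strains differed by -0.30 (-0.55 to -0.06, adjusted p = 0.0366), under the fold limit.

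Of 9 genes of heme synthesis and degradation, HEM13 included, 4 were lower and 1 was higher in untreated *anc1*Δ, with a median log2 change of -0.26 where that of all genes was -0.10 and 12.4% of all genes were lower and 11.1% higher. HEM12, HEM3 and HEM2, which encode enzymes of earlier steps, were lower by log2 changes of -0.77, -0.68 and -0.60. HMX1, the heme oxygenase that degrades heme, was higher, by 0.68. Without wildtype untreated replicate 2 neither HMX1 (0.58) nor HEM2 (-0.56) reached the fold limit, which left 3 genes lower and none higher. HEM2 also missed it without *anc1*Δ untreated replicate 1 (-0.53) and after centring (-0.56) or quantile normalization (-0.57). Under the local pooled error test, which the paper's methods name, it missed the limit too (-0.56). With MMS 3 of the 9 fell in *anc1*Δ, where 15.7% of all genes did, and 2 in wildtype, where 20.8% did, so that in wildtype the count was near the share of all genes. HEM14 rose in wildtype (0.63), but not after centring (0.52) or quantile normalization (0.54). HEM3 fell in *anc1*Δ (-0.62, and -0.58 without *anc1*Δ untreated replicate 1) and further in wildtype (-1.49), a difference of 0.86 (adjusted p = 0.00217). HEM1, for the first enzyme of the pathway, fell in *anc1*Δ (-0.80), while its log2 change in wildtype was -0.21 (adjusted p = 0.153). The responses of HEM1 differed by -0.59 (adjusted p = 0.0261), at the fold limit, and the difference did not pass after centring (-0.51) or quantile normalization (-0.50) or without some single arrays, such as *anc1*Δ MMS replicate 2 (-0.53, adjusted p = 0.0656). Between the strains with MMS, HEM1, HEM12 and HEM4 were lower in *anc1*Δ (-0.85, -0.73 and -0.70) and HMX1 was higher (1.02), while 18.4% of all genes were lower and 10.9% higher. HEM4 missed the fold limit after centring (-0.57) or quantile normalization (-0.55).

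OLE1 (YGL055W) encodes the fatty acid desaturase, which takes oxygen to make unsaturated fatty acids. It lay high on the arrays, at or above percentile 77.0 in each of the 4 groups. Its intensity was 921, 850.3 and 847 in *anc1*Δ with MMS, 3585, 3263 and 3448 in untreated *anc1*Δ, 448, 393 and 356 in wildtype with MMS, and 4063, 4255 and 3563 in untreated wildtype. The untreated arrays of the strains overlapped and the treated ones did not. MMS lowered OLE1 3.93-fold in *anc1*Δ (adjusted p = 1.5e-08) and 9.95-fold in wildtype (adjusted p = 7.95e-11), and the log2 changes differed by 1.34 (1.02 to 1.66, adjusted p = 4.63e-05). With MMS OLE1 was 2.20-fold higher in *anc1*Δ than in wildtype (adjusted p = 1.93e-06). Without MMS the log2 change was -0.20 (-0.46 to 0.05, adjusted p = 0.177). MGA2, named above as an activator of OLE1, was lower in *anc1*Δ both with MMS (-0.70, adjusted p = 0.000205) and without. Centring brought the change with MMS to -0.58, under the fold limit. The intensity of MGA2 in untreated *anc1*Δ lay at percentile 29.1.

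The responses to MMS differed between the strains in 5 of the 9 genes, CYC1, ANB1, HEM13, OLE1 and AAC3, each with a log2 change nearer to 0 in *anc1*Δ. Among all genes 23.8% had a difference of responses past the limits, 9.58% a positive and 14.2% a negative one. The median difference was 1.34 over the 9 genes and -0.08 over all genes. Among the 1175 genes that fell with MMS in wildtype, as 7 of the 9 did, it was 37.3%, against 5 of these 7. Of the 5, HEM13 and ANB1 were already lower in *anc1*Δ before treatment, by log2 changes of -1.68 and -1.01. For CYC1, OLE1 and AAC3 the untreated strains differed by -0.24 to -0.10, and the treated ones by 1.11 to 2.26. The damage-induced RNR3 also responded less in *anc1*Δ, by a difference of -2.27 (adjusted p = 1.47e-06). COX5B was the exception among the genes that fell in both strains, with the greater fall in *anc1*Δ, by a difference under the fold limit.

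**Figure D3:**
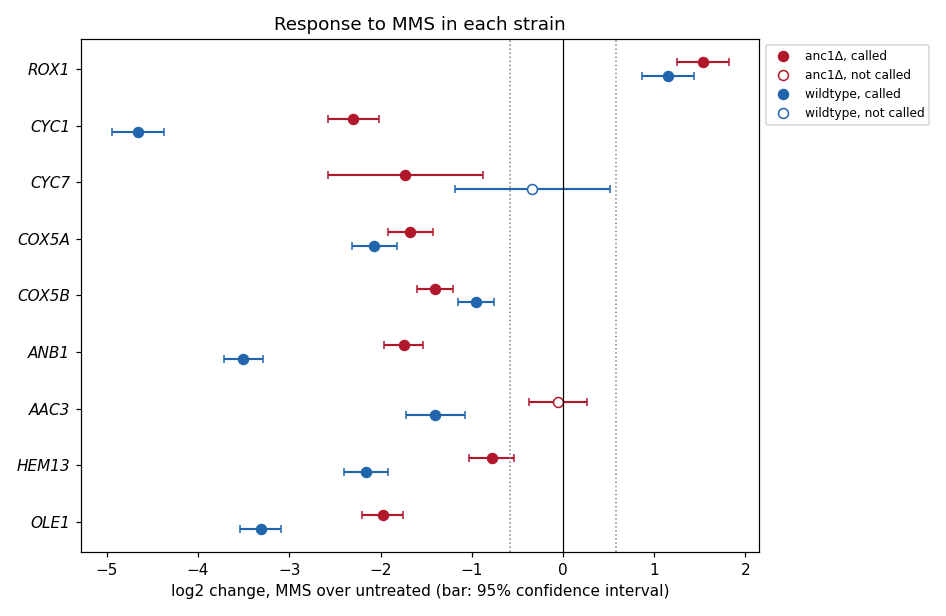
Log2 change with MMS (MMS over untreated) in *anc1*Δ and wildtype for the 9 genes, with 95% confidence intervals of limma. Filled points passed the adjusted p and the fold of 1.5 (dotted lines). CYC1 changed by -2.30 in *anc1*Δ and -4.66 in wildtype, and ROX1 rose in both.

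The isoforms of a protein did not change alike. The log2 ratio of the hypoxic to the aerobic gene was taken on each array and is given here relative to the mean of untreated wildtype, since the levels of different probe sets cannot be set against each other. For CYC7 over CYC1 it was 2.81, 2.06 and 2.14 in *anc1*Δ with MMS, 1.71, 1.82 and 1.78 in untreated *anc1*Δ, 4.56, 4.35 and 4.07 in wildtype with MMS, and 1.09, 0.34 and -1.43 in untreated wildtype. The mean ratio was thus higher with MMS by 0.57 in *anc1*Δ and by 4.33 in wildtype, and in both strains the treated arrays lay above the untreated ones. Without wildtype untreated replicate 3 the shift in wildtype was 3.61, and it contains the dim level of CYC1 in treated wildtype. For COX5B over COX5A the ratio was higher with MMS by 0.27 in *anc1*Δ and by 1.12 in wildtype, again with no overlap.

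The ratio of ANB1 to HYP2 differed in the other direction, by -1.30 with MMS in *anc1*Δ and by -2.68 in wildtype. It was lower in untreated *anc1*Δ than in untreated wildtype, by -1.30, and with MMS the strains overlapped (0.08). For AAC3 over PET9 the ratio with MMS differed by 0.52 in *anc1*Δ and by -0.66 in wildtype, and untreated *anc1*Δ lay lower than untreated wildtype by -1.04. The exact permutation test, two-sided, gave p = 0.1 for each of these shifts without overlap, the smallest that 3 arrays against 3 allow, and p = 0.6 for ANB1 over HYP2 between the treated strains. In all, 16 shifts of 4 isoform ratios were computed, without adjustment.

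**Figure D4:**
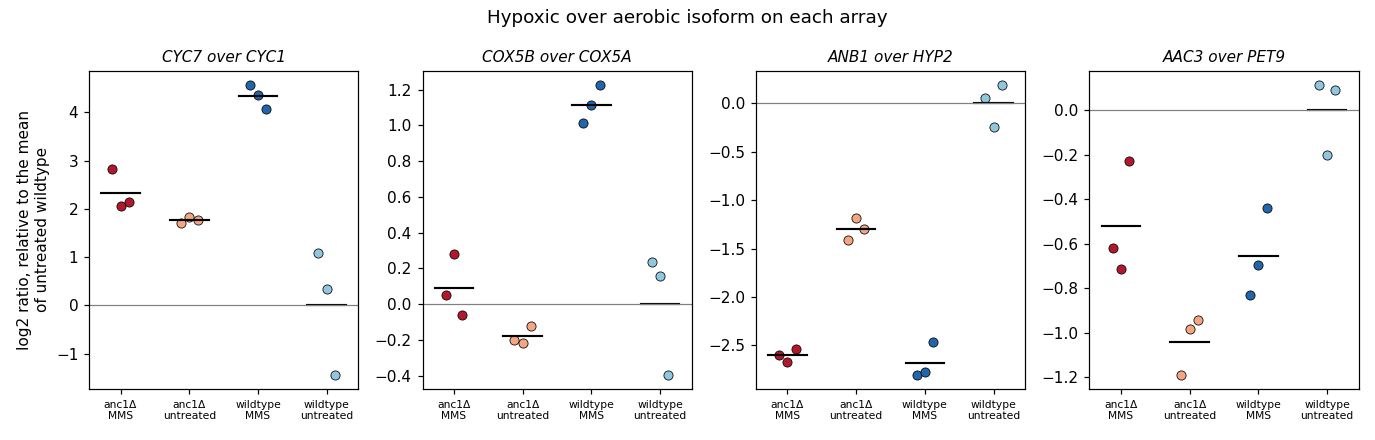
Log2 ratio of the hypoxic to the aerobic gene of 4 proteins on each array, relative to the mean of untreated wildtype, with group means as lines. CYC7 over CYC1 is highest in wildtype with MMS, at 4.07 to 4.56, and ANB1 over HYP2 is lowest in the treated groups.

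Other hypoxic genes and genes of respiration give the surroundings. Of 11 hypoxic genes outside the 9, 9 were measured, and 3 fell with MMS in *anc1*Δ (median log2 change -0.41) and 4 in wildtype (median -0.54), while none rose, where 15.7% and 20.8% of all genes fell. Without *anc1*Δ MMS replicate 2 only TIR1 fell in *anc1*Δ, since TIR2 (-0.57) and TIR3 (-0.52) then missed the fold limit. TIR1, a cell wall mannoprotein gene of cold and oxygen-poor growth, fell in *anc1*Δ (-0.96) and further in wildtype (-2.46), a difference of 1.496 (adjusted p = 2.37e-05). Between the strains, 1 of the 9 measured was lower in *anc1*Δ without MMS (median -0.44) and 2 with MMS (median -0.14). None was higher. Of all genes 12.4% were lower without MMS and 18.4% with it, so that both counts were near those shares. The gene that differed between the untreated strains was TIR1, at 427 to 516 in *anc1*Δ against 1321 to 1536 in wildtype (log2 change -1.63, adjusted p = 3.96e-05). TIR4 was at -0.52 and passed (-0.59) without *anc1*Δ untreated replicate 2. DAN1, a gene of anaerobic cells, lay no higher than percentile 19.1 of all probe sets in any of the 4 groups.

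Of 15 genes of aerobic respiration, 11 fell and 1 rose with MMS in *anc1*Δ (median -0.92), and 8 fell and 1 rose in wildtype (median -0.62). Of all genes 15.7% fell and 16.0% rose in *anc1*Δ, and 20.8% fell and 27.7% rose in wildtype. COX4, another oxidase subunit, fell in both, by -2.16 in *anc1*Δ and -2.53 in wildtype. SOD2, the mitochondrial superoxide dismutase, was the riser in both (0.95 in *anc1*Δ and 0.81 in wildtype). Between the strains, 8 of the 15 were higher in *anc1*Δ with MMS and 5 without, and none was lower, where 10.9% and 11.1% of all genes were higher. In untreated cells these were CYB2, a lactate dehydrogenase (2.08), AAC1, a further carrier gene (1.26), SOD2 (1.24), QCR7 (0.99) and COX7 (0.62, and 0.58, under the fold limit, without wildtype untreated replicate 1).

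Of the transcripts encoded in mitochondrial DNA, measured as a sign that the cells had kept it, COX1 and OLI1 lay at or above percentile 95.9 in all 4 groups. ATP8, VAR1 and COX2 were dim, at percentiles 4.51, 8.58 and 12.4 in untreated wildtype. Summed over 8 genes, of which COX1 and OLI1 gave most, the intensities were 21474 to 24894 in *anc1*Δ with MMS, 17778 to 19261 in untreated *anc1*Δ, 8754 to 12232 in wildtype with MMS and 8384 to 8738 in untreated wildtype. All 8 were higher in *anc1*Δ than in wildtype, both with MMS (median log2 change 1.86) and without (median 1.58), with COX3 at 3.15 and 3.42. Of all genes 10.9% were higher with MMS and 11.1% without, and their median log2 changes were -0.18 and -0.10. Over the alternatives 6 to 8 of the mitochondrial transcripts were called higher in *anc1*Δ in each comparison of the strains, with MMS and without. The 9 genes were not uniform in this way, with 2 higher and 2 lower in *anc1*Δ without MMS and 5 higher with it. The part of the mitochondrial transcripts in the strain differences of the 9 genes was not tested.

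**Figure D5:**
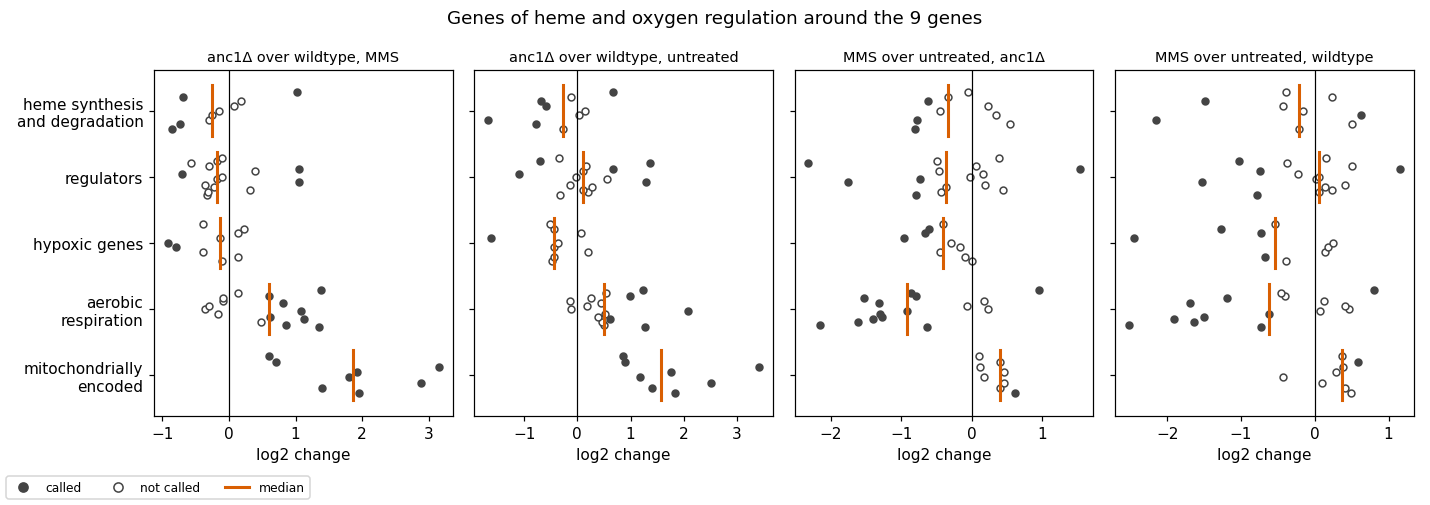
Log2 change of single genes of 4 groups of heme and oxygen regulation and of the mitochondrially encoded genes, in each of the 4 comparisons. Filled points passed the adjusted p and the fold of 1.5, and lines are medians. Genes of aerobic respiration lie mostly above 0 between the strains and below 0 with MMS. HEM13 and ROX1 are included in their groups.

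Over the 12 arrays, ROX1 correlated negatively with each of the other 8 genes (Pearson's r of log2 values -0.91 to -0.20). The 7 genes other than ROX1 and CYC7 correlated positively among themselves (0.42 to 0.98). These values describe mainly the 4 group means, since the arrays share strain and treatment. With the group means taken off, r of ROX1 with the other 8 was -0.15 to 0.77 and above 0 for 6 of them, highest for HEM13, and among the 7 genes it was -0.69 to 0.57. The genes whose pattern over the 12 arrays was most like that of CYC1 were RPS10B (r = 0.994), SRP40 (0.994) and RPS22B (0.992). For ANB1 they were HAS1, RPL17A and YVH1 (0.996 to 0.994), and for OLE1 RRP12, SNU13 and MIR1 (0.995 to 0.994). HEM13 was most like SWI5, PHO3 and YPT31 (0.994 to 0.991), and COX5A most like TOS6, TOM6 and RIP1 (0.994 to 0.993). COX5B went with AIM24, SUR2 and MIC19 (0.986 to 0.984), ROX1 with YBR062C, YHR138C and YDR109C (0.984 to 0.977), CYC7 with YIR016W, IZH3 and MPC3 (0.976 to 0.959) and AAC3 with CLN2, SNR35 and YNCJ0008W (0.966 to 0.951).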

How the data were processed

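Total RNA was labelled and hybridized to 12 YG-S98 arrays, and the authors normalized them with RMA. The table deposited holds linear intensity values of 9335 probe sets. Neither the version of RMA nor which arrays were normalized together is stated, and the present and absent calls of the methods were not used. Groups follow the sample titles. Log2 was taken, 60 control probe sets were left out, and limma 3.58.1 (R 4.3.3) was run on the other 9275, the untreated strains on 6 arrays and the other comparisons on all 12. Of these, 6504 named 1 gene, and all 6504 matched a current symbol. The thresholds are those of the methods. The local pooled error test named there was written anew and run as an alternative. The fit was tested on simulated data. Members and lists were chosen with earlier results of these data known. The text names the 9 genes, their aerobic partners, check genes, up to 4 called genes with the largest change per list, comparison and direction, and the 3 most alike genes of each. HAP1, HIS3, LEU2, MET15, URA3, TIR4, dim mitochondrial genes and uncalled values of the genes so named were added after their values were seen. Deviations of same-numbered arrays from their group means correlated positively in all 3 pairs of treated and untreated *anc1*Δ (r = 0.167 to 0.373 over probe sets). In treated and untreated wildtype r was -0.125 to 0.249. Between the strains it was -0.131 to 0.144 with MMS and -0.465 to -0.081 without. A replicate block on only the 6 arrays compared was therefore run too. Median intensities were 104 to 119.8, and the number of arrays limits the precision. No scan date or batch is stated.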

Additional observations from a re-analysis of the deposited data

Results flagged for a closer look

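In 5 of the 9 genes the response to MMS differed between the strains by the interaction term of limma, as in 23.8% of all genes. Among the 1175 genes that fell with MMS in wildtype, 37.3% had a positive difference. The difference, *anc1*Δ minus wildtype on the log2 scale, was 2.36 in CYC1, 1.76 in ANB1, 1.38 in HEM13, 1.34 in OLE1 and 1.35 in AAC3. Without any 1 of the 12 arrays all 5 still passed. Actin 3' over 5' signal was higher with MMS than without in both strains, at 3.43 to 4.0 against 1.74 to 1.85 in *anc1*Δ and 3.31 to 3.85 against 1.47 to 1.68 in wildtype, and its part in these differences was not tested. Groups of 3 arrays are too small to single out a deviating array.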

How the results depend on the processing

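Of 45 log2 changes (9 genes in 5 comparisons), 672 of the 693 values under the alternatives kept direction and side of the threshold, and so did all 112 of the isoform ratios. A replicate block left the counts of changed genes at 4 between the untreated strains, 8 with MMS in each strain, 5 between the treated strains and 5 in the difference of responses. With the block on the 6 arrays compared, added after the data were seen, they were 8, 8 and 5, and the block changed no call. Leaving out 1 array gave 2 to 4 between the untreated strains (2 without *anc1*Δ untreated replicate 3, when CYC7 and ROX1 no longer passed), 8 with MMS in *anc1*Δ, 8 to 9 with MMS in wildtype, and 5 to 6 both between the treated strains and in the difference of responses. With no fold limit 8 genes differed between the treated strains, 6 higher and 2 lower in *anc1*Δ. Without a fold limit, or with a limit of 2, all genes gave 2533 or 475 calls between the untreated strains (main count 1328), 3332 or 661 with MMS in *anc1*Δ (1793), 4151 or 1487 with MMS in wildtype (2744), 3383 or 566 between the treated strains (1657) and 2010 or 440 in the difference of responses (1347).

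Changes near 0 turned direction. COX5B between the untreated strains was 0.032 with each array centred on its median again, and between -0.090 and 0.039 with 1 array left out. CYC7 with MMS in wildtype was between -0.997 and 0.11, and AAC3 with MMS in *anc1*Δ between -0.20 and 0.056. The local pooled error test called CYC7 with MMS in wildtype (-0.72) and COX5A between the treated strains (0.61), which also passed without wildtype MMS replicate 1 (0.59) or *anc1*Δ MMS replicate 2 (0.64). Centring moved the median of all genes by -0.12 for MMS in wildtype and by 0.13 between the treated strains. Leaving out *anc1*Δ MMS replicate 2 brought the hypoxic genes that fell in *anc1*Δ to 1, against 3 with all arrays. The cause of these differences was not tested. The local pooled error test has no form for the difference of responses and was not run there. Levels near the bottom of the arrays, such as CYC1 and ANB1 in wildtype with MMS, limit how well the size of a fall is known.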
